A study of Mus musculus with 74 samples.

Results

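The promoter contacts of 9 regulators of blood stem and progenitor cells, Hlf, Meis1, Msi2, Runx1, Erg, Fli1, Lyl1, Mecom and Myb, were examined in HPC-7, a mouse progenitor cell line that grows in stem cell factor (SCF). The genes were taken by name, and their contacts were the listed interactions whose captured restriction fragment holds the annotated start or end of the gene. This placed 7 of the 9 genes on a captured fragment, among 16720 of 21900 protein-coding genes in all. A fragment was called captured where it was the captured side of a listed interaction, so captured fragments with no listed interaction would be missed. Fli1 and Mecom have no annotated start or end on a fragment called captured and are described apart, by fragments inside their gene bodies. Each of the 7 fragments holds the 5′ end of its gene, and 6 of them hold no other protein-coding gene's start or end. The exception is Lyl1, whose fragment also holds annotated ends of Trmt1 and Nfix.

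Promoter capture Hi-C joins DNA fragments that lie close to each other in the nucleus and keeps the joined pairs that contain a promoter. There were 3 lists of scored fragment pairs, each a pool of 2 libraries. The HPC list came from untransduced cells in SCF at 100 ng/ul, with no hairpin and no doxycycline named in the labels. The Ery Luc list came from cells with an inducible short hairpin RNA against luciferase, the control, induced with doxycycline for 72 h (73 h in the label of the second library) and grown in SCF at 20 ng/ul with erythropoietin (EPO) at 4 U/l. The Ery shStag2 list came from cells with a hairpin against Stag2, a subunit of the cohesin ring that holds DNA loops, induced for 72 h in the same medium. The time in EPO is not given in the labels of these libraries. HPC and Ery Luc therefore differ in transduction and doxycycline as well as in SCF and EPO, and these cannot be told apart.

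The lists held 111657 (HPC), 114254 (Ery Luc) and 120982 (Ery shStag2) pairs within chromosomes, which are the pairs counted throughout. A pair is listed at a score of 5 or more, the authors' measure of each pair, so a pair that is absent from a list scored lower or was not seen. Read depth is unknown. Contacts spanning over 1 Mb made up 1.15%, 7.05% and 8.81% of the 3 lists, so the lists also differ in a way that touches all genes. Each condition is 1 list, and no difference between lists has a replicate or a p-value. In pooled cells, a contact made in fewer cells and a contact made less often in each cell cannot be told apart. The progenitor and erythroid state of the cells was not checked by marker genes, because the tables used here do not pair the RNA-seq transcript identifiers with gene symbols; RNA levels of the 9 genes are for the same reason not analysed here.

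The 9 genes belong to the circuit that keeps blood progenitors immature, much of which is turned down as cells commit to the red cell lineage. Hlf, a PAR-type basic leucine zipper factor, Meis1, a homeodomain partner of HOX proteins, and Mecom, a zinc finger protein also known as Evi1, are known for stem cell self-renewal. Msi2 is an RNA-binding protein rather than a transcription factor, and is known to support the same cells through translation. Runx1, the ETS factors Erg and Fli1, and the basic helix-loop-helix factor Lyl1 bind enhancers together in progenitors with Gata2, Tal1 and Lmo2. Myb is a DNA-binding proto-oncogene product required for progenitor proliferation. Genes of this kind are often controlled by enhancers far from the promoter, which is what contact lists can show.

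The promoters of 4 genes whose contacts carry the results are shown here. The Hlf and Msi2 fragments had fewer contacts in Ery Luc than in either other list, the Runx1 fragment had more contacts in both EPO lists, and the Myb fragment had the same number in HPC and Ery Luc. The sequences are from RefSeq on GRCm38.p6 (mm10), run from 250 bases before to 50 after the annotated start on the minus strand, and lie inside the captured fragments. Their positions are chr11:90390868-90391167 for Hlf, chr11:88718228-88718527 for Msi2 (1 of its 3 RefSeq starts), chr16:92826025-92826324 for Runx1 and chr10:21160935-21161234 for Myb. Capitals mark matches, on either strand, to the ETS core GGAAG, the runt-domain core TGTGGT, the E-box CANNTG, the homeodomain core TGACAG of MEIS proteins and the zinc finger core GATAAG, and no match overlaps another.
Hlf: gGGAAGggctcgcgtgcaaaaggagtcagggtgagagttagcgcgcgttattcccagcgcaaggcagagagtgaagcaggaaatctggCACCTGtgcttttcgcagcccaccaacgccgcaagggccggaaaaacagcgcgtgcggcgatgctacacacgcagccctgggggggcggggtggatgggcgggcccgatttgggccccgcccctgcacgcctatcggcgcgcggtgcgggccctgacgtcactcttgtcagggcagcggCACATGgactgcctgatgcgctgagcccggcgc
Msi2: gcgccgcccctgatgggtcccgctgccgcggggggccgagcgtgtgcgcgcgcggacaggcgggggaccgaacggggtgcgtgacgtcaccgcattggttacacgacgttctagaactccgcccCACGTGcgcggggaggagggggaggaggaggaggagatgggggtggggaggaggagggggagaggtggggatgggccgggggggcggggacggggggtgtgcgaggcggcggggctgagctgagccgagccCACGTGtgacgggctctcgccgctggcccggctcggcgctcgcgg
Runx1: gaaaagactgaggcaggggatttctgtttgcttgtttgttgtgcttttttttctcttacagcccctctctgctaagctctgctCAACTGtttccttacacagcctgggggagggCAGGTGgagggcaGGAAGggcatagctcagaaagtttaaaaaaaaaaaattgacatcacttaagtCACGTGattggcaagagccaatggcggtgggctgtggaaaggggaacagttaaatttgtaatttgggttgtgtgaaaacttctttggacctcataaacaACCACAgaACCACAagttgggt
Myb: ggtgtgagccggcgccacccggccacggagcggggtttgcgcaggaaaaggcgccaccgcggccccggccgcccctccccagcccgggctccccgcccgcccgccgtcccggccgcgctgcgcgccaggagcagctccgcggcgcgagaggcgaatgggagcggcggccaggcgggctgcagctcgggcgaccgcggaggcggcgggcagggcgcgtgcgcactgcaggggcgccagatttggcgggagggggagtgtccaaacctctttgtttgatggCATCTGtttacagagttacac
The Runx1 promoter holds 2 matches to TGTGGT, 3 to CANNTG and 1 to GGAAG. The Hlf promoter holds 1 match to GGAAG and 2 to CANNTG, the Msi2 promoter 2 to CANNTG and the Myb promoter 1 to CANNTG. Of 32851 RefSeq promoters of this length, 16.8% hold TGTGGT, 71.4% GGAAG, 72.3% CANNTG, 19.2% TGACAG and 7.44% GATAAG. None of the 4 sequences holds GATAAG or TGACAG. A match is a description of the letters and not a binding site. RefSeq promoters were found for 8 of the 9 genes, and the table has no entry for Fli1.

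**Figure D1:**
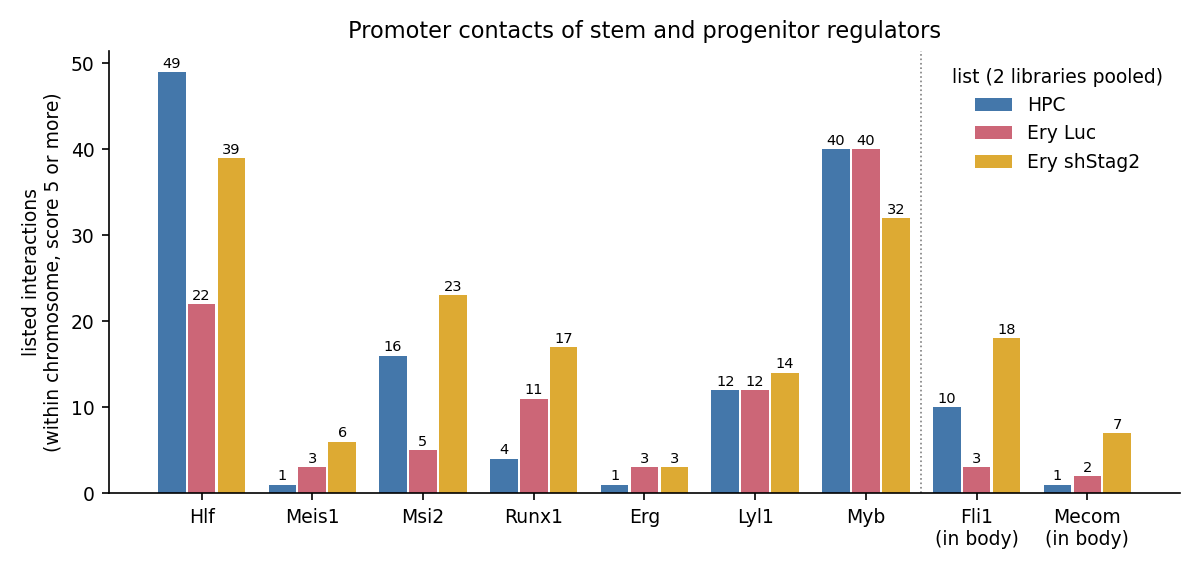
Number of listed interactions (y axis; within the chromosome, score 5 or more) for the captured fragment of each gene in the HPC, Ery Luc and Ery shStag2 lists; each bar is 1 list pooled from 2 libraries, with no error. Hlf and Msi2 are lowest in Ery Luc, Runx1 and Meis1 are lowest in HPC, and right of the dotted line are fragments inside the bodies of Fli1 and Mecom.

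Between HPC and Ery Luc, 3 of the 7 genes had at least 2 more interactions (Runx1, Meis1 and Erg) and 2 had at least 2 fewer (Hlf and Msi2). Lyl1 and Myb had the same number in both. Among 14956 protein-coding genes with a contact in either list, 34.2% had at least 2 more and 27.6% at least 2 fewer, 61.8% together. The counts of 3 and 2 in 7 are near these shares, so the group as a whole gives no result beyond them. The median change was 0 for the 7 genes and 1 for all genes. Single genes lay further out in raw counts: 0.288% of all genes lost more interactions than Hlf and 3.08% lost more than Msi2, while 6.26% gained more than Runx1. The median gene had 3 interactions in HPC, so most genes could not lose as many as Hlf or Msi2. Genes of like starting count were not compared. When pairs listed from the other side were added, Meis1 changed by 1 and Lyl1 by -2, giving 2 gains and 3 losses among the 7. Of all genes, 36.2% then had a gain and 28.1% a loss.

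Between Ery Luc and Ery shStag2, 5 of the 7 genes had at least 2 more interactions (Hlf, Msi2, Runx1, Meis1 and Lyl1), 1 had at least 2 fewer (Myb) and Erg had the same number. Of 15360 genes, 31.0% had at least 2 more and 25.5% at least 2 fewer, 56.6% together. When counts were scaled to equal list totals, these shares were 21.0% and 26.2%, and Lyl1 was no longer counted among the gains. The median change was 3 for the 7 genes and 0 for all genes. Of all genes, 0.462% gained more interactions than Msi2 and 0.56% more than Hlf, and 3.03% lost more than Myb. These too are raw counts. The median gene had 3 interactions in Ery Luc, so most genes could not lose as many as Myb. This comparison and the first one use the same Ery Luc list, so a low count in that list enters both. From HPC to Ery shStag2, where 37.7% of 15118 genes had at least 2 more and 26.5% at least 2 fewer (64.2% together), 5 of the 7 had more and 2, Hlf and Myb, fewer. With counts scaled to equal totals the shares of all genes were 26.3% and 27.4%, and 3 of the 7 had more.

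**Figure D2:**
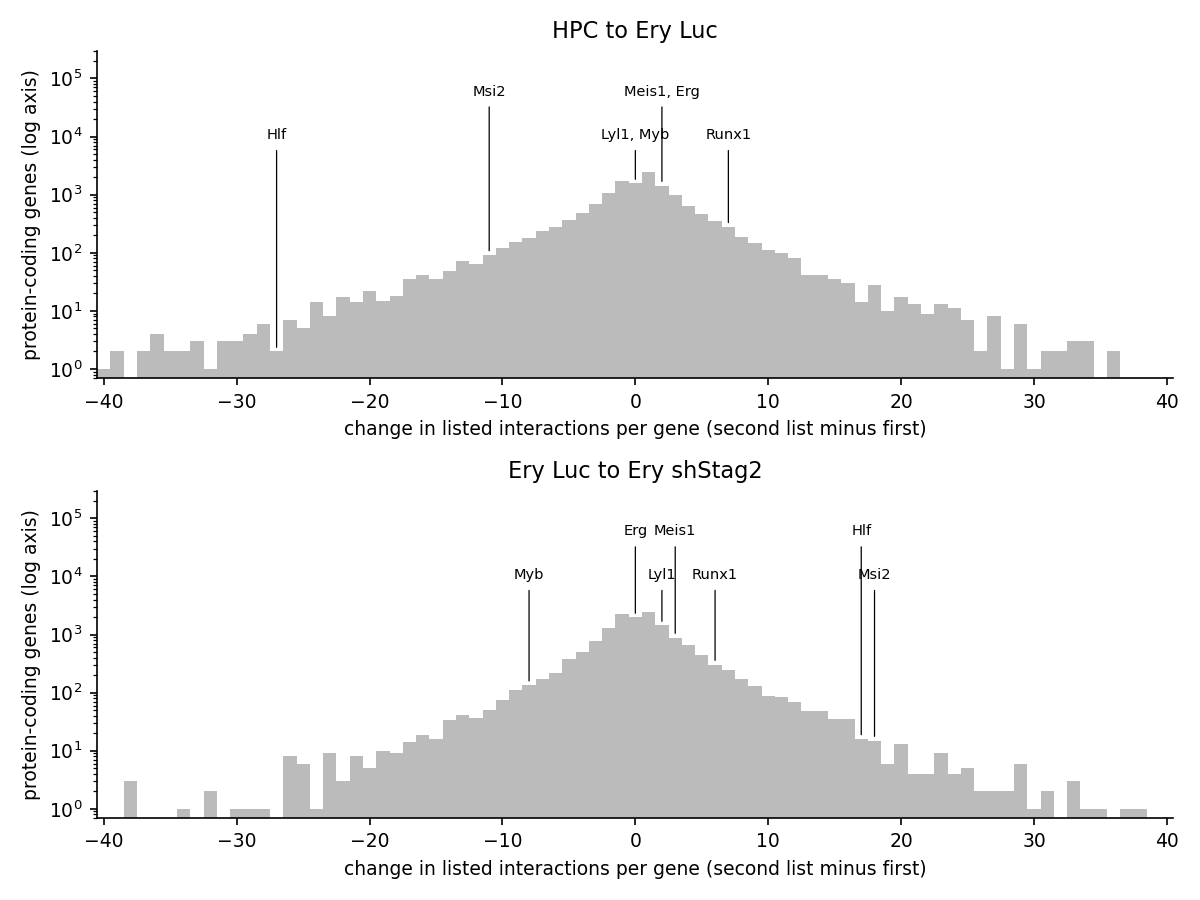
Histogram of the change in listed interactions per protein-coding gene (x axis, second list minus first; y axis, number of genes on a log axis) for HPC to Ery Luc (top, 14956 genes) and Ery Luc to Ery shStag2 (bottom, 15360 genes), with the 7 genes marked by lines. Hlf and Msi2 sit in the left tail above and the right tail below; 15 and 5 genes beyond a change of 40 are outside the axes.

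Hlf had 49 interactions in HPC, 22 in Ery Luc and 39 in Ery shStag2, on the fragment at chr11:90388557-90392124. Ery Luc is the low list, and HPC and Ery shStag2 are both high. More contacts were listed for Hlf than for 98.99% of the 16720 genes in HPC, 92.9% in Ery Luc and 97.9% in Ery shStag2. The counts with scores of at least 7 were 26, 13 and 21, and with scores of at least 10 they were 10, 5 and 8, so the order of the lists was the same. When neighbouring other ends within 10 kb were merged, Hlf contacted 9, 4 and 7 separate stretches.

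Most Hlf contacts reached upstream into the body of Stxbp4, a gene for a syntaxin-binding protein. Other ends over Stxbp4 numbered 33 in HPC, 20 in Ery Luc and 29 in Ery shStag2. A core of 17 fragment pairs, from 199 to 245 kb upstream of the Hlf fragment, was in all 3 lists. All 3 lists also had the same highest-scoring Hlf contact, at chr11:90618421-90622077 in the Stxbp4 body, 230 kb upstream. Its score was 18.6 in HPC, 12.8 for Ery Luc and 17.9 for Ery shStag2. The score was lowest in Ery Luc, as was the number of contacts.

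The contacts of Hlf missing from Ery Luc lay within and on both sides of this core. Beyond Stxbp4, other ends over Tom1l1 numbered 5 in HPC, 0 in Ery Luc and 2 in Ery shStag2, from 260 to 291 kb upstream, and those over Cox11, a cytochrome oxidase assembly gene, 3, 0 and 2. On the downstream side, past the end of Hlf, there were 8, 1 and 6, from 124 to 405 kb away. Of the 60 Hlf pairs listed anywhere, 12 were in HPC and Ery shStag2 but not in Ery Luc, 3 in HPC and Ery Luc only, and 1 in the 2 EPO lists only. A further 17 were in HPC alone, 9 in Ery shStag2 alone and 1 in Ery Luc alone. The strongest of the 12, at chr11:90637500-90638940 over the facing ends of Stxbp4 and Cox11, scored 14.4 in HPC and 9.18 in Ery shStag2. That other end is itself a captured fragment, and in Ery Luc the same pair was listed from its side with a score of 5.75, so the pair was not missing from that list. Listed from the Hlf side, contacts over 1 Mb were few, 1 in Ery Luc at 23175 kb and 1 in Ery shStag2 at 3497 kb. In Ery Luc the Hlf fragment was also met from the captured fragment of Spag9, 3607 kb away, with a score of 6.19.

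Of the HPC pairs of Hlf, 40.8% were identical in Ery Luc (20 of 49; exact binomial interval 26.997 to 55.8) and 59.2% in Ery shStag2 (29 of 49; 44.2 to 73.0). The intervals overlap, and they cover counting error only, since neighbouring fragments are not independent. Seen from the other list, 90.9% of the Ery Luc pairs were also in HPC. The 5 other captured fragments within 500 kb of Hlf had 49, 40 and 59 interactions together, with Ery Luc lowest there too, and the part of this in the Hlf counts was not tested. The genes whose counts were most like those of Hlf over the 3 lists (smallest Euclidean distance of log2(count + 1), n = 3 lists) were Tmem70 with 46, 19 and 39, Nppc with 49, 26 and 36, and Olfm5 with 50, 27 and 37.

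**Figure D3:**
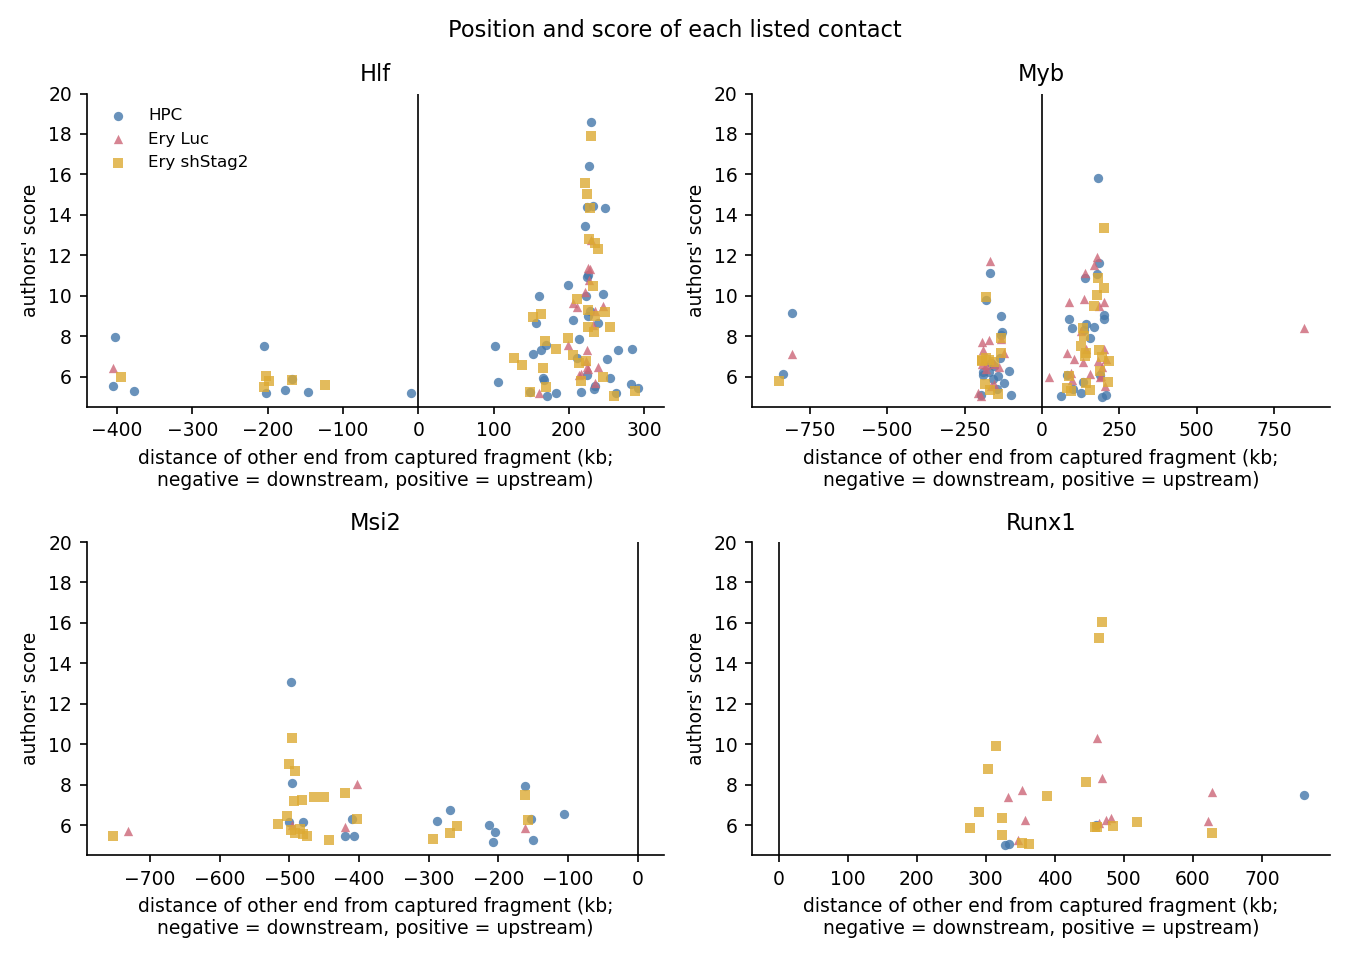
Each point is 1 listed contact of the Hlf, Myb, Msi2 or Runx1 fragment, with the distance of its other end from the captured fragment on the x axis (kb, negative downstream and positive upstream of the gene) and the authors' score on the y axis, by list; 2 Hlf contacts beyond 1 Mb are left out. Hlf contacts cluster about 230 kb upstream in all 3 lists, Myb contacts lie on both sides, Msi2 contacts lie only downstream and Runx1 contacts only upstream.

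Msi2 was also lowest in Ery Luc, but highest in Ery shStag2. Its fragment at chr11:88715150-88719844 had 16 interactions in HPC, 5 in Ery Luc and 23 in Ery shStag2. All lay downstream of the promoter, either in the long Msi2 gene body or past its end. Over the gene body there were 9, 1 and 5 other ends, from 106 to 295 kb away. Past the gene end, from 403 to 753 kb away toward Mrps23, a mitochondrial ribosomal protein gene, and Dynll2, there were 7, 4 and 18. HPC was thus highest within the gene and Ery shStag2 highest beyond it.

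Most Msi2 pairs of HPC and of Ery shStag2 were in that list alone. Of the 5 Ery Luc pairs, 4 were also in Ery shStag2 and 3 in HPC. Of 33 pairs, 3 were in all 3 lists, 4 in HPC and Ery shStag2 only and 1 in the EPO lists only. A further 9 were in HPC alone, 15 in Ery shStag2 alone and 1 in Ery Luc alone. Between HPC and Ery shStag2, 12 of 16 and 19 of 23 pairs lay within 10 kb of an other end of the other list. The highest HPC score, 13.1, was at chr11:88218436-88220654, 498 kb away in a stretch without a protein-coding gene, and that pair scored 5.73 in Ery shStag2 and was not listed in Ery Luc. The adjoining fragment chr11:88220655-88222760 was in all 3 lists, with scores of 8.06, 6.0 and 10.3, the last being the highest in Ery shStag2 among pairs listed from the Msi2 side. The highest Ery Luc score, 8.04, was at chr11:88312838-88315798, 403 kb away, which scored 6.3 in Ery shStag2 and was not listed in HPC. The Msi2 fragment was also met from the captured fragment of Ccdc182, 427 kb away, in all 3 lists, with scores of 6.80, 8.01 and 10.8. With scores of at least 10, Msi2 had 1, 0 and 1 interactions, so its differences rest on lower scores. By merged stretches it contacted 8, 5 and 7 places, and Ery shStag2 was then below HPC. A pair of captured fragments near the Msi2 gene end had 6, 2 and 3 interactions and 10, 2 and 12, with Ery Luc lowest on both. The 11 other captured fragments within 500 kb, with this pair among them, had 35, 29 and 51 together, the same order of lists as Msi2. The part of this in the Msi2 counts was not tested.

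Meis1 had few contacts, 1 in HPC, 3 in Ery Luc and 6 in Ery shStag2, on chr11:19017037-19021316. Listed from the Meis1 side, all lay downstream. All but 2 met the far end of Meis1 or the sequence just past it, 136 to 148 kb away. The 2 others were in Ery shStag2, at 865 and 1164 kb. The Meis1 fragment was also met from the captured fragment of Etaa1, 1065 kb away, in HPC (score 5.84) and Ery shStag2 (9.22). In Ery shStag2 it was met as well from a captured fragment 7105 kb away (5.68). With such pairs added, the change from HPC to Ery Luc was 1, below the threshold of 2. The pair with chr11:18874170-18878879, 143 kb away and next to the fragment with the gene end, was in all 3 lists, with scores of 6.20, 5.88 and 6.81. The gene end itself, at chr11:18878880-18886544, was listed in both EPO lists, with scores of 6.65 and 6.99. The highest score, 9.43, was in Ery shStag2 alone. No contact listed from the Meis1 side in HPC or Ery Luc reached a score of 7, against 3 in Ery shStag2. Captured fragments inside Meis1 had 0, 0 and 4 interactions on one and 1, 1 and 6 on the next, highest in Ery shStag2 and equal in the other lists. The 4 other captured fragments within 500 kb, with these among them, had 1, 1 and 12 together.

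Mecom has 2 RefSeq starts, and neither the outer one nor the annotated gene end lies on a fragment called captured. The inner start, which gives the Evi1 form, lies on chr3:30012053-30015208, with 1 interaction in HPC, 2 in Ery Luc and 7 in Ery shStag2. No pair was shared by any 2 lists. In Ery shStag2, 5 of the 7 other ends lay in the Mecom body, and 1 of these, at chr3:30503816-30510990, 494 kb upstream with a score of 6.04, holds the outer start of the gene. The highest score there, 7.0, was at chr3:30461539-30463166, also in the body. The Ery Luc list instead had the adjoining fragment, chr3:30501962-30503815, with a score of 9.49. In HPC the only contact, with a score of 5.60, was 613 kb away over Lrrc34.

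Runx1, which encodes the DNA-binding subunit of core binding factor, had 4 interactions in HPC, 11 in Ery Luc and 17 in Ery shStag2. The captured fragment, chr16:92823896-92826631, holds the distal of the 2 RefSeq starts. The proximal start lies on no fragment that was the captured side of a listed interaction. HPC was the low list and both EPO lists were above it. All contacts lay upstream, from 278 to 760 kb away, and all but 1 of the other ends overlapped no protein-coding gene. The exception, over Setd4 at 760 kb, held the highest HPC score, 7.5, and was in HPC alone.

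No Runx1 pair of HPC was identical in Ery Luc or Ery shStag2 (0 of 4; exact binomial interval 0 to 60.2%), although 3 of the 4 lay within 10 kb of an Ery Luc other end. The EPO lists shared 5 pairs, from 352 to 628 kb upstream. They include 3 adjoining fragments from chr16:93284670 to chr16:93298501, 462 to 469 kb from the promoter. Their scores in Ery Luc were 10.3, 6.09 and 8.31, against 5.92, 15.2 and 16.0 after the Stag2 hairpin, and the highest Runx1 score of each EPO list, 10.3 and 16.0, is among them. Of the 27 pairs, 12 were in Ery shStag2 alone, 6 in Ery Luc alone and 4 in HPC alone. With scores of at least 7 the counts were 1, 5 and 6, so the EPO lists differed little there. By merged stretches, they were 3, 4 and 6. The 4 other captured fragments within 500 kb had 9, 22 and 16 interactions.

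Erg, an ETS factor encoded on the same chromosome as Runx1, had 1 interaction in HPC and 3 in each EPO list, on chr16:95586380-95594151. This fragment holds the outermost of the 3 RefSeq starts of Erg. The other starts lie on no fragment that was the captured side of a listed interaction. All 6 different pairs fell in a stretch from 323 to 374 kb upstream that holds no protein-coding gene. The fragment at chr16:95952656-95957911 was in both EPO lists, with scores of 7.37 and 5.81. The highest score, 9.96 at chr16:95944549-95950074, was in Ery Luc alone, and the only HPC contact, at chr16:95957912-95960444, scored 5.8. With scores of at least 7 the counts were 0, 2 and 0. Counts this low do not separate the lists.

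Fli1, the other ETS factor, was read through the captured fragment chr9:32537398-32542241, which begins 1191 bp inside one annotated edge of the gene and holds no annotated start or end. It had 10 interactions in HPC, 3 in Ery Luc and 18 in Ery shStag2, the same order of lists as Msi2. A second captured fragment inside Fli1, chr9:32443322-32447724, had 3, 4 and 4, and did not show this order. Other ends within the Fli1 body numbered 8, 3 and 10. The pair of these 2 fragments, 94.3 kb apart, was in all 3 lists, with scores of 6.62, 6.17 and 8.26, the highest of the first fragment in both EPO lists. Its highest HPC score, 9.96, was at chr9:32532660-32535031 in the Fli1 body, which scored 5.04 in Ery shStag2 and was not listed in Ery Luc. In Ery shStag2, 3 contacts spanned over 1 Mb, against 0 in the others. Most of the Ery shStag2 contacts scored low, and with scores of at least 7 the counts were 3, 0 and 2.

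Lyl1, a close relative of Tal1, lies in a gene-dense stretch and its fragment, chr8:84695914-84708239, had 12 interactions in HPC, 12 in Ery Luc and 14 in Ery shStag2. Listed from the Lyl1 side, the 8 pairs in all 3 lists were 66.7% of the HPC pairs. Nearly all of these contacts ran to the side of Nfix, Dand5, Calr and Klf1. The Lyl1 fragment was also met from other captured fragments. Those with ends of Nacc1 and Trmt1, 16.3 kb away, and of Nfix, 98.3 kb away, met it in all 3 lists. With such pairs added, Lyl1 changed by -2 from HPC to Ery Luc and by -1 from HPC to Ery shStag2, so HPC was then highest. The highest scores in both EPO lists, 23.1 and 24.5, were at chr8:84808828-84810360, 108 kb away between genes, which scored 15.7 in HPC. Of all the contacts of the 7 genes, those of Lyl1 had the highest scores in both EPO lists.

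Among the partners of Lyl1 was the fragment of Klf1, the erythroid master factor, 199 kb away. That pair was in all 3 lists, scoring 11.4 (HPC), 5.11 (Ery Luc) and 7.03 (Ery shStag2). The pair with Calr, the calreticulin gene, scored 14.0, 8.30 and 9.56. A contact with the fragment of Prdx2 and Rnaseh2a was in Ery Luc alone, with a score of 5.76, and another fragment of Prdx2 was in Ery shStag2 alone, with a score of 5.06. Prdx2 encodes an antioxidant enzyme abundant in red cells. Counts listed from the Lyl1 side were near equal while scores were not, since such interactions with scores of at least 10 numbered 8, 4 and 7. As Trmt1 and Nfix share the fragment, none of these contacts can be given to Lyl1 alone.

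Myb had 40 interactions in HPC, 40 in Ery Luc and 32 in Ery shStag2, on chr10:21160067-21162404. Of 61 pairs, 21 were in all 3 lists, the largest such number among the 7 genes. Upstream, the contacts crossed the interval between Myb and Hbs1l, where enhancers of Myb are known, and ran through the body of Hbs1l, a translation quality-control gene. Other ends over Hbs1l numbered 12, 15 and 13, and all 12 of HPC were in all 3 lists. Each list had its highest Myb score there: 15.8 in HPC at chr10:21339371-21343456, 11.9 in Ery Luc at the fragment next to it, chr10:21339129-21339370, and 13.3 in Ery shStag2 at chr10:21360828-21362177. These lie 178 to 200 kb from the Myb fragment.

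On the other side, downstream of Myb, other ends over Ahi1, its neighbour, numbered 18 in HPC, 15 in Ery Luc and 11 in Ery shStag2, and 5 were in all 3 lists. Upstream there were 20, 24 and 20 contacts in all, and downstream 20, 16 and 12. Ery shStag2 thus had fewer than Ery Luc on both sides, and fewer than HPC on the downstream side. Of the Ery Luc pairs, 60.0% were identical in Ery shStag2 (24 of 40; exact binomial interval 43.3 to 75.1), and 37 of the 40 lay within 10 kb of an Ery shStag2 other end. With scores of at least 7 the counts were 18, 19 and 14, with scores of at least 10 they were 5, 4 and 4, and by merged stretches 8, 7 and 6. The difference was thus small among the highest scores. The 7 other captured fragments within 500 kb had 103, 71 and 79 interactions.

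**Figure D4:**
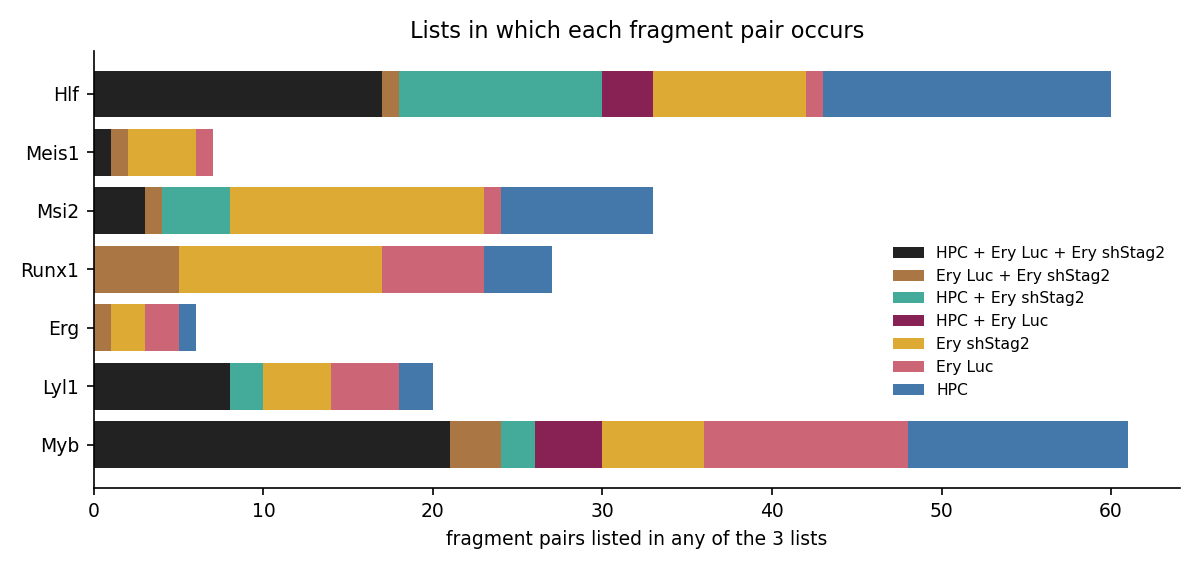
Number of fragment pairs per gene (x axis) listed in any of the 3 lists, split by the lists that hold them. Myb, Hlf and Lyl1 have 21, 17 and 8 pairs in all 3 lists, and Runx1 and Erg have 0.

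Across the 7 genes, 214 pairs were listed in any list and 50 in all 3. Of the HPC pairs, 46.3% were in Ery Luc (57 of 123; exact binomial interval 37.3 to 55.6) and 56.9% in Ery shStag2 (70 of 123; 47.7 to 65.8), against 45.3% and 44.5% over the whole list. Of the Ery Luc pairs, 64.6% were in Ery shStag2 (62 of 96; 54.2 to 74.1), against 47.6% over the whole list. Myb with 21, Hlf with 17 and Lyl1 with 8 hold most of the 50 pairs in all 3 lists, so these shares rest mainly on those genes. Neighbouring fragments are not independent, and fragments of like count were not compared. The intervals are therefore no test of a difference from the whole list.

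Other regulators of the same cells differed in both directions. Of 28 further stem and progenitor regulators, 22 were on a captured fragment and 21 had contacts to compare. From HPC to Ery Luc 10 had at least 2 more and 7 at least 2 fewer, with a median change of 0, beside 34.2% and 27.6% of all genes. Mycn went from 27 to 46, the zinc finger factor Ikzf1 from 37 to 52 and Myc from 18 to 29, while Kmt2a, a histone methyltransferase gene, went from 15 to 5 and Tal1 by as much, from 45 to 35. Cebpa, a myeloid factor, went from 10 to 1 and Ikzf2 from 93 to 85. From Ery Luc to Ery shStag2, 5 had more and 8 fewer, again with a median of 0, beside 31.0% and 25.5% of all genes. Sox4 went from 24 to 51 and Tal1 from 35 to 47, while Spi1 went from 28 to 6 and Hhex, a homeobox gene, from 19 to 7, Ikzf2 from 85 to 75 and Myc from 29 to 21.

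Of 34 partners and paralogs of the 9 genes, 28 were on a captured fragment. From HPC to Ery Luc 9 of 27 had more and 9 fewer, and from Ery Luc to Ery shStag2 9 of 26 had more and 8 fewer, beside the same shares of all genes. Tal1, the paralog of Lyl1, had 45 in HPC, 35 in Ery Luc and 47 in Ery shStag2. The ETS gene Elf1 went from 34 in Ery Luc to 9 in Ery shStag2, and Mybl2, a paralog of Myb, from 16 to 26.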

How the data were processed

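Promoter capture Hi-C lists of HPC, Ery Luc and Ery shStag2 cells were used, each pooled by the authors from 2 libraries. The deposited value of each pair is a score of at least 5. The software that set it is not given in the sources used here, nor is the depth in reads. The build is mm10 per the submitters' processing notes. Pairs within chromosomes were counted for fragments holding a RefSeq gene start or end. A difference of at least 2 counts was called a gain or loss, as a description without a test. Intervals are exact binomial (95%) and cover counting error only. All 9 genes were named, with the top contact per list (except 1 for Lyl1, not reported here), and genes of the related lists where counts differed by at least 8, the rule being the 4 largest per list and comparison; Tal1 (a tie, HPC to Ery Luc), Cebpa, Ikzf2 and Myc (Ery Luc to Ery shStag2) were added after their values were seen. Members and lists were chosen with earlier results of these data known. The 15 RNA-seq count tables were not used, since the planned mapping of transcripts to genes could not be made, and other samples were not analysed here. The lookup of a position in a fragment was tested on simulated fragments, and the counting itself was not. Python 3.11.15, pandas 2.3.3, SciPy 1.17.1 and matplotlib 3.10.9 were used.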

Additional observations from a re-analysis of the deposited data

How the results depend on the processing

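With scores of at least 10, the number of the 7 genes with a gain or loss of at least 2 was 2 in each comparison: 0 gains and 2 losses from HPC to Ery Luc, 2 and 0 from Ery Luc to Ery shStag2, and 1 and 1 from HPC to Ery shStag2. Of all genes at that setting, 14.2%, 17.8% and 17.3% had a gain and 22.9%, 13.6% and 22.3% a loss. With other ends within 10 kb merged, an alternative chosen after seeing the data, it was 2 from HPC to Ery Luc, both losses, beside 27.5% of all genes with a gain and 17.7% with a loss. When an other end within 10 kb counted as shared, 77.2%, 92.7% and 87.8% of the first list's pairs were shared in the 3 comparisons. The share over the whole list at this tolerance was not computed. These values, and those within 10 kb given for single genes, therefore have no background beside them. From HPC to Ery shStag2, Lyl1 had a difference of -1 with scores of at least 10 and of -1 when pairs listed from the other side were added, and Msi2 had -1 with merged other ends; the cause was not tested. Of the single-gene values under the 6 alternatives that altered any of them, 94 stayed on the same side of the threshold, and the called ones among them kept direction. Some uncalled ones moved from 0, as Myb did from HPC to Ery Luc, to 1 with scores of at least 7 and -1 at 10. A further 25 lost the call, 4 gained it and 3 changed sign. These 6 alternatives altered from 4 to 20 of the single-gene values each, and the values they left unaltered are among the 94. The other 4 alternatives altered none of the 7 genes' counts. Over all genes from HPC to Ery Luc, 9246 of 14956 were called at a score of 5, 5358 of 10945 at 7 and 2316 of 6249 at 10; from Ery Luc to Ery shStag2 8691 of 15360, 4628 of 10880 and 1807 of 5753; from HPC to Ery shStag2 9713 of 15118, 5711 of 11152 and 2537 of 6404. No paired analysis was possible because each list pools its 2 libraries, which also leaves no replicate to leave out. The alternatives planned for RNA counts were not run.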
